A study of Drosophila melanogaster with 12 samples.

Results

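The genes described here are the small nucleolar RNA (snoRNA) genes of Drosophila melanogaster S2 cells, chosen as every gene that the deposited RNA-seq comparison sheet gives the biotype snoRNA. There were 227 such genes among the 10287 genes of the count table. By name, 111 are Psi genes (guides of pseudouridylation), 64 are Me genes (guides of 2′-O-methylation) and 52 carry neither tag. The names of 102 point to the 28S ribosomal RNA (rRNA) and of 58 to the 18S rRNA. The remaining guides are named for small nuclear RNAs of the spliceosome, and 14 genes carry the prefix scaRNA, for RNAs of the Cajal body. S2 cells (Schneider 2) are a macrophage-like line that was derived from male embryos of the Oregon-R strain. All samples were cells kept without serum and then exposed for 4 h either to vehicle, 25 mM HEPES at pH 8.2, or to 10 µM insulin, a dose that the sample labels write as 10 M. RNA-seq and ATAC-seq, which marks accessible DNA with a transposase, were each run on 3 samples per treatment. The sources do not say that these came from separate cultures, so p-values measure only the spread between these samples.

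A snoRNA works as the guide of a small ribonucleoprotein. H/ACA snoRNAs pair with their target around the uridine to be isomerised and bind the pseudouridine synthase dyskerin (Nop60B in flies), while C/D snoRNAs pair with a stretch of rRNA and place the methyltransferase fibrillarin (Fib) on the nucleotide paired just upstream of box D. In flies most snoRNAs are cut out of the introns of host genes, which include ribosomal protein genes and the Uhg genes, whose spliced RNAs are noncoding. A few, such as U3, which acts in the first cleavages of the rRNA precursor, are transcribed from genes of their own. Growth through insulin signaling raises ribosome production, the process that these RNAs serve.

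The sequences of 7 members are shown. snoRNA:Psi28S-291 had the highest level and snoRNA:Psi28S-2996 collected the most ATAC-seq peaks. The others passed the test of insulin against vehicle. Among them, the calls of scaRNA:PsiU6-40, snoRNA:Psi18S-525d and snoRNA:Me28S-A771 are no support, for the reason given below. The sequences were read from the RefSeq release 6 genome of Drosophila (dm6 coordinates), at the positions of the deposited annotation. They run 5′ to 3′ on the strand of the gene. In the H/ACA RNAs the capitals mark the ACA box, which ends 3 bases before the 3′ end.
snoRNA:Psi28S-2996 (chr2L:22535458-22535593, minus strand, in an intron of RpL5): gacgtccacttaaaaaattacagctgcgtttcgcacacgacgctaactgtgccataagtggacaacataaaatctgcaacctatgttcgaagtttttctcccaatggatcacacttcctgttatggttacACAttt
snoRNA:Psi28S-291 (chr3R:11223571-11223790, plus strand, in an intron of RpL3): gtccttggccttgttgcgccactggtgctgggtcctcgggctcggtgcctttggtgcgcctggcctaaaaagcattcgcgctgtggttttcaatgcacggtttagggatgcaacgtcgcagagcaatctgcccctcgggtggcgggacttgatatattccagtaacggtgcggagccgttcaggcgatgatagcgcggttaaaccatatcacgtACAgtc
snoRNA:Psi18S-301 (chr3R:20574906-20575043, plus strand, outside any gene on its strand): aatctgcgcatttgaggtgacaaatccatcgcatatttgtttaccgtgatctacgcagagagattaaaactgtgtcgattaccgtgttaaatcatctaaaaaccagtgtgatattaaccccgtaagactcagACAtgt
scaRNA:PsiU6-40 (chr3L:21006379-21006520, minus strand, in an intron of skd): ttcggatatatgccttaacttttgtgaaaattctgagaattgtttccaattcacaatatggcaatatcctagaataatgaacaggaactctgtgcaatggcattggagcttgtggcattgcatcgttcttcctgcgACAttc
snoRNA:Psi18S-525d (chr2L:20419145-20419281, plus strand, in an intron of Arpc2): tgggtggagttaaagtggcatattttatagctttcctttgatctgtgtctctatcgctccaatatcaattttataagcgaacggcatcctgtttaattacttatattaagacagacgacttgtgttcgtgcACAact
In the C/D RNAs the capitals mark box D, CTGA, near the 3′ end, and in snoRNA:Me28S-A771 also the run of 10 bases that is complementary to 28S rRNA.
scaRNA:MeU2-48 (chr3L:1498872-1498996, minus strand, in an intron of pUf68): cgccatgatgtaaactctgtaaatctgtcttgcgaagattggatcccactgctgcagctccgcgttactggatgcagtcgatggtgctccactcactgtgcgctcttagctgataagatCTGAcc
snoRNA:Me28S-A771 (chr3L:830437-830511, minus strand, in an intron of CG13900): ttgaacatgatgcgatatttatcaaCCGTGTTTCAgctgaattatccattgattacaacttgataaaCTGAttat
The stretch of the 28S rRNA gene 28SrRNA:CR45844 that pairs with this run follows, with the capital at the adenosine opposite the guide base 5 positions before the internal ctga. This adenosine is base 796 of the gene, and the number in the snoRNA name counts in another numbering of the rRNA.
28SrRNA:CR45844 (rDNA scaffold, bases 71747 to 71756, plus strand): tgaAacacgg

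The names were checked against the sequences. Bases ACA ending 3 bases before the 3′ end were present in 94.6% of the Psi genes and in none of the 64 Me genes, and CTGA within the last 20 bases was present in 98.4% of the Me genes and 4.5% of the Psi genes. Stretches of the same length lying 1000 bases beyond the 227 genes, read on the same strand, held the ACA in 1.32% and the CTGA in 6.17%. A full box C (ATGATGA or GTGATGA within the first 20 bases) was found in 50.0% of the Me genes and in 0.441% of the stretches beyond. Of the 55 Me genes named for 18S or 28S rRNA, 40 held a run of at least 9 bases complementary to that rRNA with the named base placed 5 positions before the letters NTGA, and the median length of these runs was 12. The stretches beyond held no run of that length, and their longest was 8. For 39 of the 40 the paired base lay 0 to 71 positions after the number in the name. The genes with neither tag were mixed, with box D in 59.6% and the ACA in 9.62%.

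The hosts in the count table were 80 genes, and a few of them held many snoRNA genes each. An intron of another gene on the same strand held 205 of the 227, while 13 lay outside any gene on their strand, and 9 had hosts whose exons were not read from the newer annotation. The hosts were protein-coding for 166 genes and long noncoding for 48. The genes dom (a chromatin remodelling ATPase), Uhg1 and Arpc2 (a subunit of the actin-nucleating Arp2/3 complex) held 15 snoRNA genes each, RpS5a held 14 and Uhg5 held 11. Grouped by the stem of the name, without a copy letter or the map position that ends names such as snoRNA:U3:54Aa, 122 genes fell into 41 families, and for 39 families all members lay in a single host.

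Levels differed widely between the classes. The level of a gene was its mean over the 6 libraries, in CPM (read counts scaled to the size of the library) per kb of gene length. The median over genes was 635 for the Psi genes, 20.4 for the Me genes and 77.5 for the untagged genes. Psi genes had a median length of 140 bases and Me genes of 79.5, and across the 227 genes the level per kb and the length had a Spearman rho of 0.622 (Pearson's r with the log2 level, 0.586), given as a description because all points come from the same libraries. How well RNAs of these lengths enter a library made from 50-base reads was not tested. Of the summed snoRNA level, 71.3% came from Psi genes and 1.78% from Me genes. The 10 highest genes held 44.2% of it and the single highest, snoRNA:Psi28S-291, 11.9%.

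The 8 highest genes per kb were snoRNA:Psi28S-291, snoRNA:Or-CD2, snoRNA:Psi28S-3342, snoRNA:Or-aca4, snoRNA:Psi18S-176, snoRNA:Or-aca5, snoRNA:185 and snoRNA:Psi18S-110, from 17113 down to 7743 CPM per kb. In the names, Or marks orphan snoRNAs, for which no target is known. snoRNA:Psi28S-291 stood at 3878, 4335 and 3434 CPM in the vehicle libraries X1 to X3 and at 3326, 4022 and 3595 CPM in the insulin libraries X4 to X6, and the treatments overlapped (log2 fold change −0.09, SE 0.12). Of these 8 genes snoRNA:185 alone passed the test.

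Members of a family were not equally abundant. The 10 copies of Psi18S-525, 9 in Arpc2 and 1 in Msp300, ranged in the vehicle libraries from 9.12 CPM per kb for snoRNA:Psi18S-525d to 284 for snoRNA:Psi18S-525k, a ratio of 31.1, while pairs of copies shared 68.6% to 90.4% of their aligned bases. The latter copy was chosen after its values were seen. The 4 copies of Psi28S-1192 in RpS5a differed by 71.0-fold, and in 10 of the 41 families the ratio was over 10. Windows of 50 bases that also occur elsewhere in the genome were present in 16 of the 227 genes, 4 of them copies of Psi18S-525, and for these the counting may have dropped or split reads. snoRNA:Psi18S-525d and snoRNA:Psi18S-525k held none.

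After insulin, 20 snoRNA genes differed from vehicle, in a comparison in which 50.0% of the 8683 tested genes passed FDR < 0.05 in edgeR's quasi-likelihood test, 27.0% of them upward and 23.1% downward. Of the 227 snoRNA genes, 190 had enough counts to be tested. Of these 9 were higher and 11 were lower after insulin, which is 10.5% of those tested. Libraries of the treatments did not overlap for 30 of the 190 snoRNA genes (15.8%) and for 55.6% of all tested genes. The median log2 fold change was −0.20 for the snoRNA genes and −0.01 for all genes, with 140 snoRNA genes below 0 and 50 above. Small nuclear RNA genes stood like the snoRNA genes, with a median of −0.21, all 15 tested genes below 0, 2 of them past the threshold, and a median coefficient of variation between libraries of 17.0%. The plot of fold change against level shows the snoRNA genes within the cloud of all genes.

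**Figure D1:**
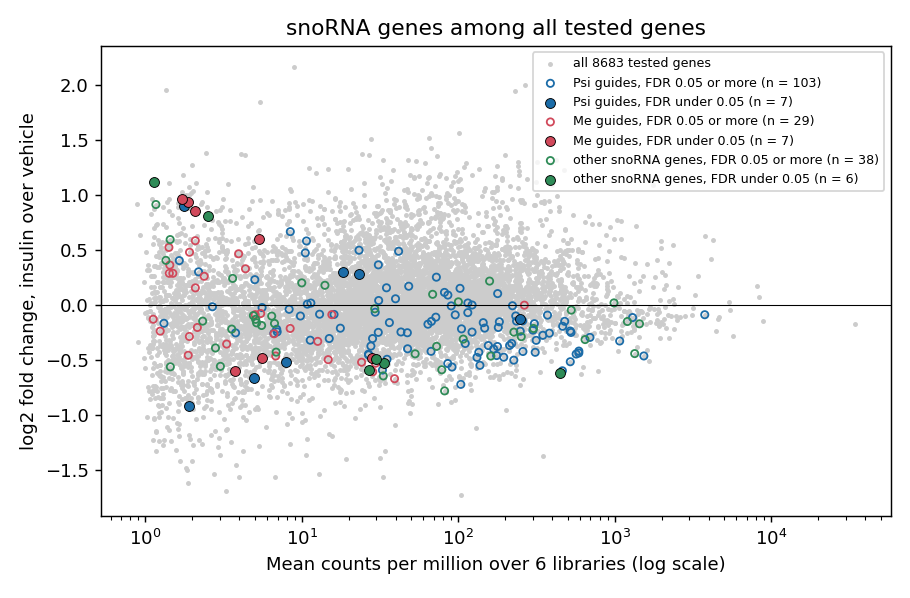
Log2 fold change (insulin over vehicle, y axis) against mean CPM over 6 libraries (x axis, log scale), for 8683 tested genes (grey) and 190 tested snoRNA genes, coloured by class and filled where FDR was under 0.05. The filled points sit between −0.92 and 1.12, and above a few CPM most snoRNA genes lie below 0.

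The spread between libraries of 1 treatment was wide for the snoRNA genes. Their median biological coefficient of variation was 14.8%, against 4.11% over all tested genes, and for the 110 tested Psi genes it was 16.4%. The median SE of the log2 fold change was 0.23 for the snoRNA genes and 0.07 for all genes, so that a change of a given size was harder to call among the snoRNA genes, and missing the threshold does not show equal levels. This variation was shared. Of the 122 tested snoRNA genes with a mean of at least 100 counts, 108 had their highest vehicle value in library X2 and the other 14 in X1. Summed over the 227 genes, the level was 34236, 41458 and 27457 CPM in the vehicle libraries and 28793, 30323 and 27726 CPM after insulin. The means were 34384 ± 7002 and 28947 ± 1305 CPM (SD, n = 3), and X3 lay below all 3 insulin libraries. In bulk RNA, less of an RNA per cell and fewer cells that hold it cannot be told apart. Among the vehicle libraries the order of depth was the reverse, with 8125856 counts in X2, 8910251 in X1 and 10256535 in X3, while the insulin libraries held 7132065 to 9850342. X2 also stood apart for other RNA classes, with 1.98% of its counts from small nuclear RNA genes and 3.99% from rRNA genes, against 1.55% and 3.61% in X1 and 1.52% and 3.61% in X3. The part of depth and library composition in the snoRNA levels was not tested.

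**Figure D2:**
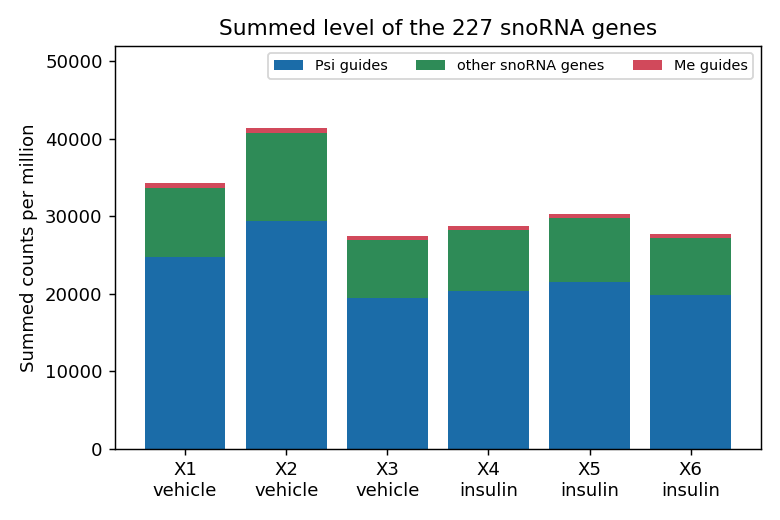
Summed CPM of the 227 snoRNA genes (y axis) in each of 6 RNA-seq libraries (x axis, 3 of vehicle and 3 of insulin), stacked by class. Vehicle library X2 is the highest at 41458 CPM and vehicle library X3 the lowest at 27457 CPM, and Me genes form a thin band on top.

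The counts of called genes rested on these libraries. Without X3, 3 snoRNA genes were higher and 74 were lower. Without X2, 19 were higher and 17 were lower. A fit in which genes with outlying spread were not treated apart (glmQLFit without its robust option) called 8 higher and 56 lower. The direction of the median stayed below 0 in each case. Of the 20 called genes, 5 passed under all 13 alternatives: snoRNA:185, snoRNA:2R:9445410, snoRNA:Irbp-a, snoRNA:Psi18S-301 and scaRNA:MeU2-48, all lower after insulin.

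Among these 5, snoRNA:185, an untagged RNA of 55 bases on chromosome 2R outside any gene on its strand, had the highest level. It stood at 530, 589 and 507 CPM in the vehicle libraries and at 331, 382 and 349 CPM after insulin. Every insulin library lay below every vehicle library, and the log2 fold change was −0.62 (SE 0.08, adjusted p = 0.0028, edgeR). snoRNA:Irbp-a, from an intron of Irbp, the fly Ku70 gene, stood at 37.4, 32.9 and 26.8 CPM against 19.5, 20.8 and 24.3 CPM (log2 fold change −0.59, SE 0.13, adjusted p = 0.0020, edgeR). snoRNA:2R:9445410 fell from 31.0, 41.4 and 31.9 CPM to 22.3, 27.0 and 24.9 CPM. The treatments did not overlap for either gene.

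scaRNA:MeU2-48, a methylation guide of U2 small nuclear RNA, stood at 34.3, 37.0 and 26.7 CPM in the vehicle libraries and at 22.4, 25.4 and 21.8 CPM after insulin. It fell by 0.49 on the log2 scale (SE 0.11, adjusted p = 0.0016, edgeR), without overlap. snoRNA:Psi18S-301, whose sequence is given above, stood at 6.93, 6.66 and 4.84 CPM against 4.42, 3.46 and 3.43 CPM, and fell by 0.66 (SE 0.19). scaRNA:PsiU6-40, a guide of U6, had a log2 fold change of −0.92 (SE 0.34, adjusted p = 0.022, edgeR), at a low level of 1.87, 3.82 and 1.90 CPM against 1.44, 1.44 and 0.959 CPM. All 3 vehicle libraries, where it is high, reached the level asked by the count filter, and not all insulin libraries did. With its level this near the filter, its call is no support. The call was lost without X2 or X6, with adjusted p up to 0.25 over the alternatives. All 13 tested scaRNA genes had log2 fold changes below 0 (median −0.49). Of the 13, 2 passed the test, scaRNA:PsiU6-40 among them, which is 15.4%, beside 50.0% of all tested genes. The median coefficient of variation between libraries was 20.8% for the scaRNA genes and 14.8% for all snoRNA genes.

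The remaining falls came from dom and from scattered hosts. snoRNA:Me28S-A2589b stood at 7.48, 7.02 and 5.21 CPM against 4.62, 4.33 and 4.93 CPM, and its neighbour copy snoRNA:Me28S-A2589c at 6.27, 4.31 and 3.13 CPM against 2.98, 3.03 and 2.88 CPM. Both copies fell without overlap, by 0.49 and 0.60 on the log2 scale. The first lost its call without X1, X2, X4 or X5 (adjusted p up to 0.11 over the alternatives) and the second without X1, X4, X5 or X6 (up to 0.34). snoRNA:Psi28S-3316d, in another intron of dom, fell by 0.52 (SE 0.16), with 5 windows shared with other loci, and lost its call without X4 (adjusted p up to 0.11). snoRNA:291, in CG1646, fell by 0.52 (SE 0.16, adjusted p = 0.041, edgeR), and leaving out X1, X4, X5 or X6 ended its call (adjusted p up to 0.17). snoRNA:Psi18S-1377d in RpS7, outside the rule for named genes and given because it completes the count, fell by 0.13 (SE 0.04), the smallest called change, and lost its call without X2, X4 or X5 (adjusted p up to 0.12).

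**Figure D3:**
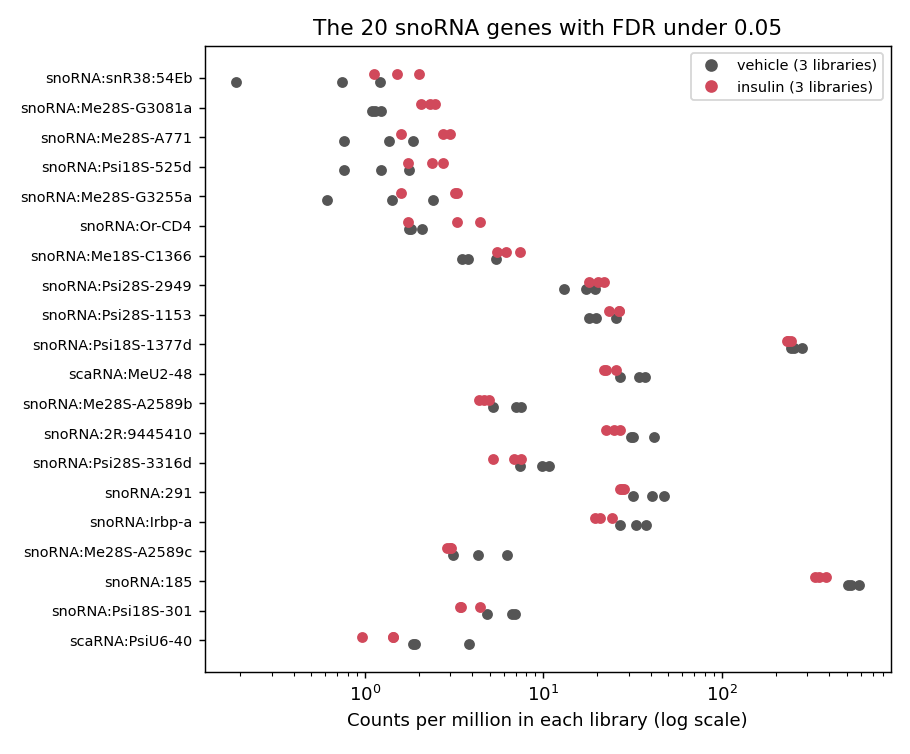
CPM (x axis, log scale) of the 20 snoRNA genes with FDR under 0.05 in each of 6 libraries, ordered by fold change, with vehicle in grey and insulin in red. The falling genes at the bottom include snoRNA:185 near 349 against 530 CPM, and the 6 steepest rises at the top lie under 5 CPM.

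Of the 9 rises 7 were of genes with a mean under 100 reads, and 6 of the 9 lay in Uhg genes. snoRNA:Me28S-G3081a, in Uhg1, stood at 1.10, 1.23 and 1.14 CPM in the vehicle libraries and at 2.05, 2.31 and 2.47 CPM after insulin, which is 10 to 12 reads against 16 to 20. Its log2 fold change was 0.96 (SE 0.32, adjusted p = 0.012 in edgeR and 0.077 in DESeq2). It passed the count filter through the insulin libraries alone, where it is high, so that it had to differ to be tested, and its call is no support. snoRNA:Me18S-C1366, in Uhg5, stood at 3.52, 5.42 and 3.79 CPM against 6.16, 5.48 and 7.40 CPM (log2 fold change 0.60, SE 0.19), and lost its call without X1 or X6 (adjusted p up to 0.067 over the alternatives). The treatments overlapped in the remaining 7 rises.

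The calls of these 7 depended on single libraries. snoRNA:snR38:54Eb in Uhg1 had the largest log2 fold change, 1.12 (SE 0.46), from 11, 6 and 2 reads to 11, 14 and 11 reads. snoRNA:Me28S-A771 rose by 0.94 (SE 0.33), from 1.87, 1.36 and 0.759 CPM to 2.98, 1.59 and 2.74 CPM, and snoRNA:Psi18S-525d by 0.90 (SE 0.34). snoRNA:Me28S-G3255a in Uhg4 and snoRNA:Or-CD4 in Uhg5 rose by 0.86 (SE 0.35) and 0.80 (SE 0.29). At higher levels snoRNA:Psi28S-2949 in Uhg4 rose by 0.30 (SE 0.12), and snoRNA:Psi28S-1153, outside any gene on its strand, rose by 0.28 (SE 0.10). Each of these 7 lost its call when any of at least 3 single libraries was left out: X3, X4 or X6 for snoRNA:Me28S-A771 and snoRNA:Psi18S-525d, X1, X3 or X4 for snoRNA:Or-CD4, X1, X3, X4 or X5 for snoRNA:Psi28S-2949, X2, X3, X4 or X5 for snoRNA:Psi28S-1153, X2, X3, X4 or X6 for snoRNA:Me28S-G3255a and X2, X3, X5 or X6 for snoRNA:snR38:54Eb. Over the alternatives their highest adjusted p lay between 0.15 and 0.34. The count filter asked for about 1.17 CPM in any 3 libraries. For 6 tested snoRNA genes all insulin libraries but not all vehicle libraries reached this level, and for 5 the reverse held. Genes of these 2 kinds include snoRNA:Me28S-G3081a, snoRNA:Me28S-A771, snoRNA:Me28S-G3255a, snoRNA:Psi18S-525d and scaRNA:PsiU6-40. They passed the filter through the treatment where they are high, so their calls are no support.

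By class, 7 of 110 tested Psi genes passed (3 higher, 4 lower), 7 of 36 Me genes (4 higher, 3 lower) and 6 of 44 untagged genes (2 higher, 4 lower). These are 6.36%, 19.4% and 13.6%, all below the 50.0% of all tested genes. The median log2 fold changes were −0.21, −0.11 and −0.18. By target, 4 of 51 tested guides of 18S rRNA (7.84%) and 8 of 81 guides of 28S rRNA (9.88%) passed, with medians of −0.15 and −0.19. Among the 59 genes with a mean of at least 1000 counts 2 passed (3.39%), both lower, and 56 had log2 fold changes below 0. U3, described here because of its role although outside the rule for named genes, was counted mainly from snoRNA:U3:9B. This copy stood at 323, 413 and 241 CPM against 293, 298 and 248 CPM, with overlap and a log2 fold change of −0.21 (SE 0.23). All 3 copies of U3 held windows of 50 bases that also occur elsewhere in the genome. Reads from these windows may have been dropped or split, which limits the level and fold change of each copy.

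Genes for the proteins of the snoRNA particles rose. All 12 of the listed genes were higher after insulin, against 27.0% of all tested genes. Nop60B, the pseudouridine synthase of H/ACA particles, stood at 220, 209 and 219 CPM in the vehicle libraries and at 416, 394 and 406 CPM after insulin (log2 fold change 0.91, SE 0.03). The other H/ACA core genes NHP2, CG7637 (Nop10) and CG4038 (Gar1) rose by 1.15, 1.35 and 1.23 on the log2 scale. Fib, the methyltransferase of C/D particles, rose from 86.1, 75.2 and 81.4 CPM to 190, 185 and 198 CPM (log2 fold change 1.24, SE 0.05), with Nop56 at 1.29 and nop5 at 1.30. hoip, whose protein binds the kink turn of C/D RNAs, rose most, by 1.94 (SE 0.04), from 96.2, 93.9 and 95.9 CPM to 359, 388 and 354 CPM. The assembly factors pont, rept, CG10341 (Naf1) and Nufip rose by 0.60, 0.60, 0.93 and 0.72. None of the 12 overlapped between treatments, and their levels differed little between libraries of 1 treatment, X2 included.

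Of 78 tested host genes, 33 were higher and 23 were lower after insulin, which is 71.8% called beside 50.0% of all tested genes. Among 175 pairs of a tested snoRNA gene and its tested host, from 68 hosts, the signs of the log2 fold changes matched in 89. The median was −0.19 for the snoRNA and 0.14 for the host, and the snoRNA lay below its host in 141 pairs. Pairs of 1 host share its value and all pairs share their libraries, so Pearson's r of 0.33 and Spearman's rho of 0.27 across pairs are descriptions. Where the host was higher after insulin, in 100 pairs, the snoRNA had a log2 fold change below 0 in 66 and was itself higher in 8.

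**Figure D4:**
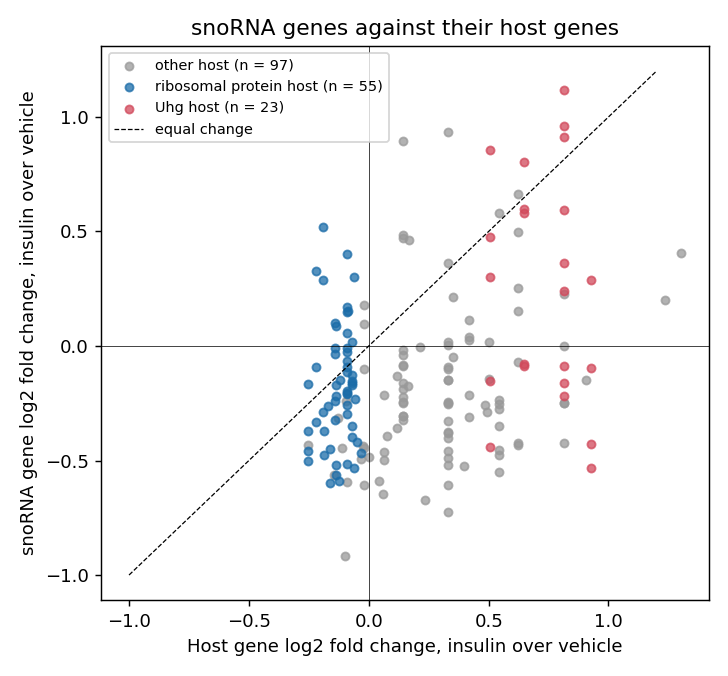
Log2 fold change of the snoRNA gene (y axis) against that of its host gene (x axis), insulin over vehicle, for 175 pairs. Points of Uhg hosts (red, 23 pairs) lie right of 0, those of ribosomal protein hosts (blue, 55 pairs) just left of it, and 141 of 175 lie below the dashed line of equal change.

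The hosts fell into recognisable groups. Uhg1 stood at 35.0, 37.6 and 38.6 CPM in the vehicle libraries and at 64.6, 62.6 and 68.5 CPM after insulin (log2 fold change 0.81, SE 0.06), and Uhg4, Uhg5 and Uhg2 rose by 0.51, 0.65 and 0.93. Of the 24 tested snoRNA genes of Uhg hosts 6 were higher, which is 25.0% and near the 27.0% of all tested genes. For 2 of the 6 (snoRNA:Me28S-G3081a and snoRNA:Me28S-G3255a) all insulin libraries but not all vehicle libraries reached the level of the count filter. Reads from a mature snoRNA and from an unspliced host intron cannot be told apart in these counts. The 26 host genes for ribosomal proteins all had log2 fold changes below 0, with a small median of −0.14. Of them 18 were called lower, which is 69.2%, beside 23.1% of all tested genes. Of their 55 tested snoRNA genes 1 passed, which is 1.82%, beside 50.0% of all tested genes.

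In Uhg4 and dom, hosts of several named genes, the log2 fold changes of the named snoRNAs differed in sign from each other or from the host. In Uhg4, snoRNA:Or-CD2 stood at 1382, 2134 and 1128 CPM in the vehicle libraries and at 1185, 1161 and 1067 CPM after insulin. The treatments overlapped and it was not called (log2 fold change −0.44, SE 0.27). snoRNA:Me28S-G3255a and snoRNA:Psi28S-2949 of the same host had log2 fold changes above 0, also with overlap. The first lost its call under 7 of the 12 alternatives that tested it and the second under 9 of 13. These values therefore do not show opposite changes within Uhg4. The log2 ratio of snoRNA:Or-CD2 to Uhg4 was lower by 0.90 after insulin, without overlap, and the exact permutation test (two-sided) gave p = 0.10, the smallest that 3 against 3 libraries allow. dom was higher after insulin (log2 fold change 0.33, SE 0.03), and its 3 called snoRNAs were lower. Their ratios to dom differed between treatments by −0.82, −0.90 and −0.84 on the log2 scale for snoRNA:Me28S-A2589b, snoRNA:Me28S-A2589c and snoRNA:Psi28S-3316d, each without overlap. The exact permutation test again gave its smallest p of 0.10. These 3 were chosen as called lower in the same data. Both Me28S-A2589 copies fell and dom rose without overlap, so their ratios had to separate. The p is therefore no support. scaRNA:MeU2-48 fell while its host pUf68, a splicing factor, had a log2 fold change of 0.00 (SE 0.04). For snoRNA:Me18S-C1366 and Uhg5, by contrast, the ratio differed by −0.05 and overlapped.

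In the ATAC-seq data, 77 of 10269 merged peaks had a snoRNA gene as the gene assigned to them, and they belonged to 37 of the 227 snoRNA genes. The authors' mean normalised count of these peaks had a median of 231, against 243 over all merged peaks, and ranged from 108 to 2485. Within 1 kb of the snoRNA start lay 29 peaks, of 27 genes, and 15 peaks covered part of their own snoRNA gene. A peak was called in both treatments for 62 of the 77, after insulin alone for 7 and after vehicle alone for 8. These are 80.5%, 9.09% and 10.4%, beside 78.8%, 8.78% and 12.4% of all merged peaks. Peaks were called on the 3 samples of a treatment together, so that this has no replicate check. A call in both treatments does not show equal accessibility, and changes in accessibility were not tested here.

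Many snoRNA genes lay under a peak that was assigned to another gene, be it the host, another snoRNA gene or a neighbour. A merged peak covered at least 1 bp of 51 snoRNA genes. It was assigned to the snoRNA gene itself for 15 of these, to its host for 16 and to neither for 20. Some of the 20 lay under a peak assigned to another snoRNA gene. The 3 Psi18S-1347 copies in pAbp, the gene of the poly(A)-binding protein, lay in a single peak of 5340 bp with a mean of 2263. That peak was assigned to 1 of the copies, snoRNA:Psi18S-1347b. A peak of 5860 bp over CG13900, with a mean of 1780, covered snoRNA:Me28S-A771 and snoRNA:Psi18S-110 together with 3 further snoRNA genes. snoRNA:Psi28S-291 lay in a peak over RpL3 with a mean of 1403. These peaks were called in both treatments. The pAbp copies were chosen after their values were seen.

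snoRNA:Psi28S-2996 held 28 of the 77 assigned peaks. In RNA it stood at 755, 780 and 493 CPM in the vehicle libraries and at 532, 518 and 463 CPM after insulin, with overlap through X3 (log2 fold change −0.42, SE 0.21, adjusted p = 0.19, edgeR), and its host RpL5, a ribosomal protein gene, had a log2 fold change of −0.05 (SE 0.03). The snoRNA itself lay under a peak with a mean of 1329 that was assigned to RpL5. Of the 28 peaks 27 were intergenic, 29.1 to 88.1 kb downstream of its start, with means of 142 to 981, and the remaining peak, with a mean of 422, lay 1823 bp downstream at the 3′ part of RpL5. In the 60.3 kb that the 27 peaks spanned the deposited annotation had no gene, and a newer Ensembl annotation listed 3 transposable elements. Of its bases 79.1% were repeat-masked in the reference, against 18.1% of chromosome arm 2L, and the authors' aligner placed reads with several matches at random. The part of such reads in these peaks was not tested.

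**Figure D5:**
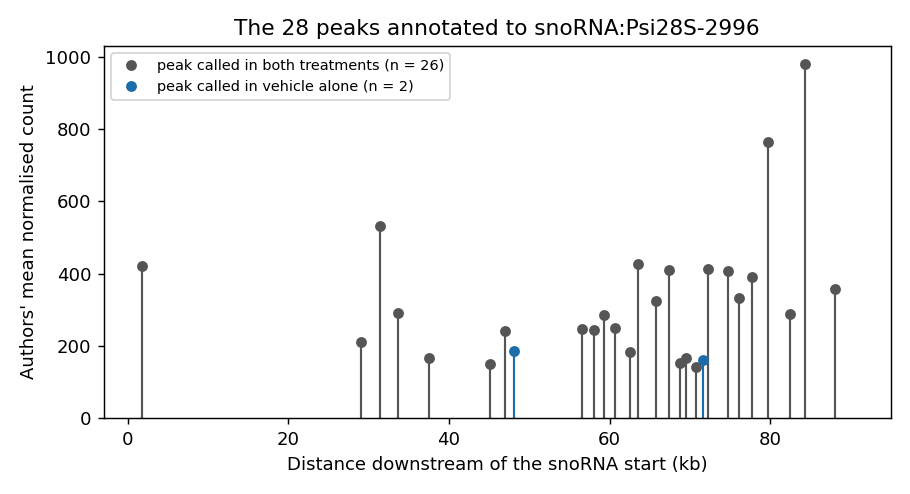
Mean normalised count given by the authors (y axis) of the 28 merged peaks assigned to snoRNA:Psi28S-2996 against distance downstream of its start (x axis, kb). One peak lies at 1823 bp and the other 27 between 29.1 and 88.1 kb, with 26 of the 28 called in both treatments.

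scaRNA:PsiU6-40 held 5 assigned peaks, all upstream of its start inside its host skd, a Mediator subunit gene, with means of 151 to 1549. The peak of 151 was called after vehicle alone and the others in both treatments. skd was lower after insulin by a log2 fold change of −0.10 (SE 0.04), and the snoRNA fell by 0.92. snoRNA:Me18S-C1366, which rose after insulin, lay under a peak with a mean of 153 that was called after vehicle alone, and snoRNA:Irbp-a, which fell, had a peak 403 bp from its start, with a mean of 178, called after insulin alone.

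The libraries were checked once as a whole. Pairs of libraries of 1 treatment differed beyond sampling noise (chi-square per degree of freedom 2.19 to 6.46, against 20.3 to 26.4 between treatments), so each library was counted as its own sample. Of 8 blood cell markers 6 were in the table, at 6.47 to 492 CPM, and NimC1 and He were not. The 3 germline and 2 listed muscle markers were under 1 CPM, and of the 4 neuronal markers elav stood at 59.3 CPM, brp at 1.60, Syt1 at 1.05 and nSyb at 0.75.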

How the data were processed

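Total RNA depleted of rRNA was sequenced in 50-base reads. The authors mapped them to the BDGP6 build by STAR. Their deposited counts, made by featureCounts for the sense strand of each gene, are whole numbers without normalization. For ATAC-seq the authors aligned reads to dm6 with Novoalign, placing repeats at random, called peaks per treatment, merged them and annotated them with ChIPseeker. The signal used, the authors' mean normalised count per merged peak, is a deposited value over all samples. The sources used here state no version for these tools. The sheets also hold the authors' fold changes and p-values, which were not used, and 12 columns of values per sample that were not used because the raw counts were.

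TMM factors scaled the counts, and the quasi-likelihood test of edgeR 4.0.16 was run (robust, after filterByExpr; limma 3.58.1 in R 4.3.3), with Benjamini-Hochberg adjustment over 8683 genes. The code was tested on simulated data. DESeq2 1.42.0 was an alternative. CPM were TMM-scaled. Hosts and sequences used Ensembl release 115 and RefSeq, in Python 3.11.15 (numpy 2.4.6, pandas 2.3.3, scipy 1.17.1, matplotlib 3.10.9). Positions of 221 of the 227 genes were the same in release 115. The count columns were placed in a treatment by the deposited sample sheet. Libraries held 7132065 to 10256535 counts.

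Genes named were the 10 largest rises and 10 largest falls among snoRNA genes at FDR < 0.05, the 8 highest per kb, those with at least 5 assigned peaks, snoRNA:Psi28S-2996, their hosts and the snoRNP protein genes. Sequences are shown only for members off chromosome 2R. The members and lists were chosen with earlier results of these data known.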

Additional observations from a re-analysis of the deposited data

How the results depend on the processing

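The number of snoRNA genes higher after insulin was 9 and the number lower was 11. DESeq2 gave 1 higher and 19 lower, a minimum of 10 counts in every library gave 4 higher and 10 lower, and glmQLFit without its robust option gave 8 higher and 56 lower. Leaving out 1 library at a time gave 3 to 19 higher and 6 to 74 lower, with 74 lower without X3 and 19 higher without X2. The median log2 fold change ranged from −0.35 without X3 to −0.05 without X2 and stayed below 0 throughout. The cause was not tested. With RLE factors, library totals alone, TMM without the snoRNA genes, or no filter beyond 1 count, both numbers stayed within 1.5 times, and no named gene turned its direction where either fit called it. Taking hosts on either strand, or other rules for a peak at a snoRNA gene, also kept counts within that range (27 to 51 snoRNA genes with a peak, 37 by assignment). No paired analysis was possible because the count columns carry no replicate number. Too few reads to be tested were found for 28 of 64 Me genes, against 1 of 111 Psi genes and 8 of 52 untagged genes. The cause of this difference was not tested.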
